A study of Mus musculus with 16 samples.

Results

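The genes described here are 30 mouse genes of cholesterol synthesis and lipid transport, picked by gene symbol and not by measured values, out of 53379 genes in the count tables. They are 7 genes of the mevalonate steps, 11 genes of the steps from squalene to cholesterol, 4 regulators of the sterol regulatory element binding proteins (SREBPs), 5 genes of lipid carriers and transport and 3 fatty acid genes. All 30 passed the filter on low counts and were among the 14445 genes tested.

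RNA was sequenced from green (GFP+) cells sorted from the neocortex of mice at postnatal day 4, in 16 libraries, each from 1 animal, with strain CD1 in the labels and a mixed C57BL/6 and CD1 background in the methods of the study. All animals carried MADM cassettes on chromosome 7 (MADM7-GT/TG), Emx1-cre, which drives recombination in the cortical progenitors of excitatory neurons and glia, and XGFAP-lacZ, a lacZ transgene under the human GFAP promoter. Mosaic analysis with double markers (MADM) exchanges homologous chromosomes in dividing cells and so ties the color of sparse cells to the allele they carry. Green cells were Eed+/+ where the animals were control-MADM, and Eed-/- where they were Eed-MADM and heterozygous as a whole. Eed encodes a core part of PRC2, the Polycomb complex that methylates histone H3. Cells sorted as GFP+/lacZ+ are called astrocytes and those sorted as GFP+/lacZ- neurons, so the astrocyte label rests on a transgene driven by the promoter of Gfap. By the direction of the mating, the green cells of both genotypes held a pair of paternal copies of chromosome 7, which carries Apoe, Dhcr7 and Eed itself. Labels gave 5 Eed+/+ astrocyte, 5 Eed-/- astrocyte, 2 Eed+/+ neuron and 3 Eed-/- neuron libraries, and 1 library had conflicting cell type labels and no group.

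Cholesterol in the brain is made locally, since plasma lipoproteins hardly cross the blood-brain barrier, and astrocytes are known as a major source of it for neurons after birth. Synthesis runs from acetyl-CoA through mevalonate and farnesyl units to squalene, whose cyclization product lanosterol is trimmed to cholesterol. Scap carries the SREBP precursors to the Golgi for cleavage when sterols are low, Insig1 holds them back when sterols are high, and the cleaved factors switch on most genes of the pathway, together with factors such as NF-Y, which binds CCAAT boxes. Export uses the transporters Abca1 and Abcg1 and the lipoprotein carrier Apoe.

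Promoter windows from 250 bases before to 50 bases after the start (RefSeq, GRCm38.p6) were found for 23 of the 30 genes and not for the other 7. Counting any window of a gene, at least one CCAAT box (CCAAT on either strand) was present in 19 of the 23 (82.6%). The share was 43.3% of the 10655 tested genes with such a window and 41.1% of all 27025 genes with one. The sterol regulatory element TCACNCCAC, searched on both strands, matched in 1 of the 23 (4.35%), that of Hmgcs1, against 1.44% of the tested genes. In the window nearest to the annotated start, 18 genes held 37 CCAAT boxes, 9 of them with 2 or more, and in Fasn a pair of boxes on opposite strands shared bases. The following windows show genes of the early and late synthesis steps with several boxes (Hmgcs1, Mvk, Msmo1 and Nsdhl). Beside them stand Srebf1 and Apoe, the pair of genes whose levels did not overlap between the cell types below. In the windows shown, Srebf1 has a single box far upstream and Apoe has none. Srebf1 and Apoe each have 3 windows, and only the one nearest to the annotated start is shown. Capitals mark CCAAT, its reverse complement ATTGG and, in Hmgcs1 alone, the 9 letters of the sterol regulatory element, and each sequence is written 5′ to 3′ on the strand of its gene.
Hmgcs1, chr13:119690101-119690400, plus strand: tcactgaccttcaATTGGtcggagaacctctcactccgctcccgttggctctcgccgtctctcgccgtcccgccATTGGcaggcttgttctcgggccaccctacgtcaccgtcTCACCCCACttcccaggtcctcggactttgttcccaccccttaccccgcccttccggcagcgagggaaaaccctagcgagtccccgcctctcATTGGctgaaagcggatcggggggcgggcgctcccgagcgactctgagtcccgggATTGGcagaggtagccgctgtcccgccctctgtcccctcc
Mvk, chr5:114444019-114444318, plus strand: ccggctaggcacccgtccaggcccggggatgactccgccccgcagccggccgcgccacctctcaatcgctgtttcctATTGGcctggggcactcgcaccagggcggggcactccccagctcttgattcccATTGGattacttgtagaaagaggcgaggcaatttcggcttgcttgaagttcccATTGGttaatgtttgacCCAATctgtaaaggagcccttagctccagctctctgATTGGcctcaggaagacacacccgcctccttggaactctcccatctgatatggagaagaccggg
Msmo1, chr8:64733529-64733828, minus strand: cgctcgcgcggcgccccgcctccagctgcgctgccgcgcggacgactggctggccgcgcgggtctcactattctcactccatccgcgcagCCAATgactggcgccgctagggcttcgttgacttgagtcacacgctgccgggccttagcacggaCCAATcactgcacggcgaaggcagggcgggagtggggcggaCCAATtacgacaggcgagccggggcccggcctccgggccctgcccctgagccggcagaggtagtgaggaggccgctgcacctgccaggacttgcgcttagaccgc
Nsdhl, chrX:72918271-72918570, plus strand: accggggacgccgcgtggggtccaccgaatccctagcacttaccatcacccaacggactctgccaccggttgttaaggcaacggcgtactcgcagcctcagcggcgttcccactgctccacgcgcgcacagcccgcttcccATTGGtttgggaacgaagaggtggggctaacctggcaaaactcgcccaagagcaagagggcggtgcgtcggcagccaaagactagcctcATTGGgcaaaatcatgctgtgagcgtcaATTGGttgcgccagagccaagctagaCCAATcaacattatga
Srebf1, chr11:60222532-60222831, minus strand: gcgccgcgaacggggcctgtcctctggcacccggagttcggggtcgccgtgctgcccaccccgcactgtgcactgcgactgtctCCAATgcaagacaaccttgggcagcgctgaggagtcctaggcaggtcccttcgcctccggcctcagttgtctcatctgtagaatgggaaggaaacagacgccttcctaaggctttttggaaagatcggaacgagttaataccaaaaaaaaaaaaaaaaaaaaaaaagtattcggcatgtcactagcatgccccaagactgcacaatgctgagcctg
Apoe, chr7:19699139-19699438, minus strand: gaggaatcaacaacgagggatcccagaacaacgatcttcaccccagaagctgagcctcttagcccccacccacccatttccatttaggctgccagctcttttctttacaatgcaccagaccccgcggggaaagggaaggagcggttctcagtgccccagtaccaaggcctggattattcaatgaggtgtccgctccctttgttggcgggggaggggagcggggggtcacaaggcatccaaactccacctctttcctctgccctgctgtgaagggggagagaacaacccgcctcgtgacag
The sterol element of Hmgcs1 began 137 bases before its start. Of the 37 boxes, 26 lay within 150 bases upstream of the start, in 16 genes. Mvk held the most, 5 boxes in its window. A match describes the letters of a window and is not a measured binding site.

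Depth and alignment separated the libraries. Of the 15 labelled libraries, 10 had at least 60% and at least 1000000 uniquely aligned reads, with 994077 to 3178529 counts over genes, and these well aligned libraries carry the comparisons (Eed+/+ astrocyte replicates 1, 2, 4 and 5, Eed-/- astrocyte replicates 2 and 5, Eed+/+ neuron replicate 1, and Eed-/- neuron replicates 1, 2 and 3). The other 5 had 211736 to 477760 counts and 26.1% to 38.1% uniquely aligned reads. Levels are TMM-scaled counts per 1000000 gene reads (CPM), and the values of a gene are given below in that order of libraries. Summed over 12 astrocyte markers, the astrocyte libraries had between 9793 and 25650 CPM and the neuron libraries between 6009 and 8154 CPM, with reads of all 12 in every neuron library (Aqp4, the astrocyte water channel, averaged 1697 and 565 CPM). Summed over 12 neuron markers, the neuron libraries had 1695 to 2744 CPM and the astrocyte libraries 309 to 2700 CPM, the latter in Eed-/- astrocyte replicate 5. Of these 12 markers Slc17a7, the vesicular glutamate transporter of cortical excitatory neurons, was near 0 in all libraries (mean 0.241 CPM in astrocytes and 3.53 CPM in neurons), and Lrrn3 was the 1 neuron marker without overlap (21.8 and 59.5 CPM). Summed over 8 markers of the oligodendrocyte lineage, which also makes cholesterol, the neuron libraries had 2230 to 3564 CPM (mean 2945, above their neuron marker mean of 2227) and the astrocyte libraries 1253 to 4902 CPM (mean 2917), with reads of all 8 in every neuron library. Most of it was Olig1, a transcription factor of that lineage (mean 1795 CPM in astrocytes and 1870 CPM in neurons), and Mbp, a myelin protein gene, reached 1997 CPM in Eed+/+ astrocyte replicate 1. Between the cell types 3 of these 8 markers were positive and 0 had an unadjusted p under 0.05, and the part of these cells in the values below was not tested. Summed microglia markers ranged from 12.5 to 475 CPM in astrocyte and from 16.4 to 164 CPM in neuron libraries. Eed itself had 88, 204, 85 and 41 reads in the Eed+/+ astrocyte libraries, 26 and 14 in the Eed-/- astrocyte libraries, 121 in the Eed+/+ neuron library and 21, 74 and 53 in the Eed-/- neuron libraries, counted over the whole gene, including exons outside the deleted part.

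**Figure D1:**
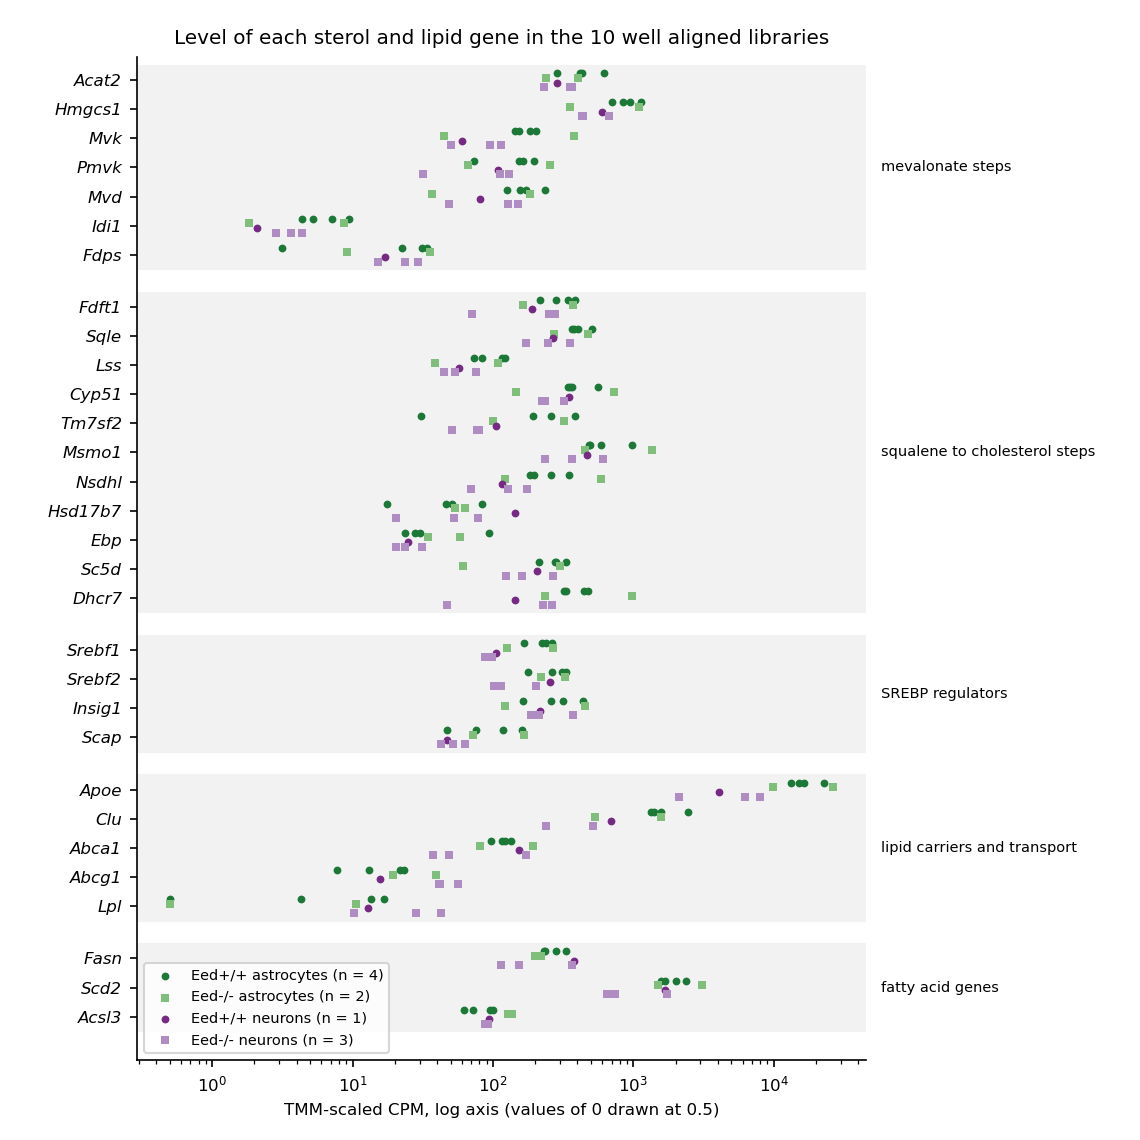
TMM-scaled CPM of each of the 30 genes in the 10 well aligned libraries, on a log axis, with 1 point for each library, colored by group and blocked by role. Apoe lies highest, between 2113 and 26570 CPM, and only Apoe and Srebf1 have every astrocyte library above every neuron library.

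The first comparison asked whether sterol and lipid genes differed between the sorted astrocytes and neurons. The mean level in the astrocyte libraries was 3.40 times that in the neuron libraries for Apoe, 3.01 times for Clu, 2.75 times for Tm7sf2 and for Dhcr7, 2.33 times for Nsdhl, 2.32 times for Mvk and 2.26 times for Srebf1, and the ratio was below 1 for Lpl (0.320), Abcg1 (0.535), Hsd17b7 (0.714) and Fasn (0.989). None of the 30 genes passed an adjusted p of 0.05 in either direction (edgeR quasi-likelihood test, Benjamini-Hochberg over all genes tested, genotype as a term), and neither did any of the 14445 genes (0% called higher and 0% lower). At an unadjusted p under 0.05, 9 of the 30 genes were higher in astrocytes and 0 were lower, where 4.3% of all genes tested were higher and 8.25% differed in either direction. The count moved with the Eed-/- astrocyte libraries, being 2 without replicate 2 (4.03% of all genes tested in either direction) and 15 without replicate 5 (13.1%), all higher in astrocytes. The log2 difference, astrocytes minus neurons, was positive in 26 of the 30 genes, with a median of 0.56, whereas it was positive in 40.2% of all genes tested, whose median was -0.21. In these bulk libraries, fewer cells of a type and less RNA per cell cannot be told apart. The summed astrocyte markers given above moved with this comparison, with 9 of those 12 markers at an unadjusted p under 0.05 and all 12 positive, and their part in it was not tested.

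**Figure D2:**
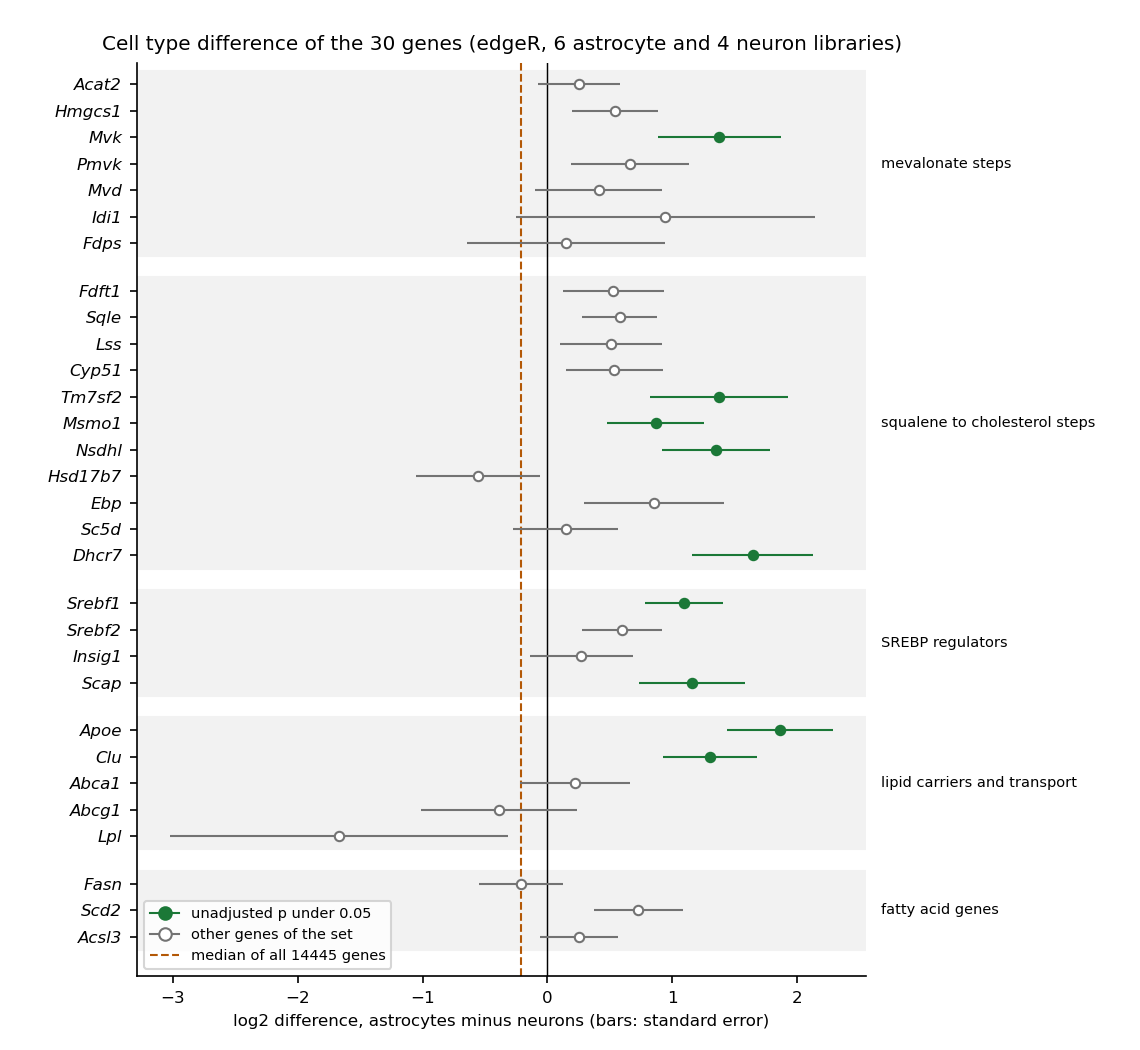
Log2 difference of each of the 30 genes between 6 astrocyte and 4 neuron libraries (positive: higher in astrocytes), with standard errors as bars, and the median of all 14445 genes tested as a dashed line. Filled points mark the 9 genes with an unadjusted p under 0.05, and 26 genes lie right of 0.

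Apoe, the main lipoprotein of the brain and a product of astrocytes, was the most abundant of the 30 genes. Its level was 15260, 22960, 13230 and 16420 CPM in the Eed+/+ astrocytes, 26570 and 9938 CPM in the Eed-/- astrocytes, 4086 CPM in the Eed+/+ neurons and 6203, 8041 and 2113 CPM in the Eed-/- neurons. The lowest astrocyte library stood above the highest neuron library. The mean was 17400 ± 6221 CPM (SD, n = 6) in astrocytes and 5111 ± 2570 CPM (SD, n = 4) in neurons, a ratio of 3.40, with a log2 difference of 1.86 (SE 0.42, unadjusted p = 0.000477, adjusted p = 0.314 by edgeR). Apoe took between 29.1% and 65.7% of the CPM of all 30 genes in a library. Per kilobase of exon, its mean over the 10 libraries was 5838 CPM, followed by Clu (316), Scd2 (312), Hmgcs1 (157) and Acat2 (143).

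Clusterin (Clu), a second secreted lipoprotein component, had 1588, 2451, 1403 and 1338 CPM in the Eed+/+ astrocytes, 1574 and 531 CPM in the Eed-/- astrocytes, 694 CPM in the Eed+/+ neurons and 519, 514 and 239 CPM in the Eed-/- neurons. Only Eed-/- astrocyte replicate 5 lay within the range of the neurons. The mean was 1481 ± 615 CPM (SD, n = 6) against 492 ± 188 CPM (SD, n = 4), and the log2 difference was 1.30 (SE 0.37, unadjusted p = 0.00314, adjusted p = 0.367 by edgeR). The transporters that load lipid onto these carriers had lower levels. Abca1 ranged from 81.4 to 193 CPM in astrocytes and from 37.3 to 172 CPM in neurons, with Eed+/+ neuron replicate 1 (154 CPM) and Eed-/- neuron replicate 3 (172 CPM) far above the other neurons.

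Abcg1, which passes cholesterol to lipoprotein particles, was at 21.7, 23.1, 7.79 and 13.2 CPM in the Eed+/+ astrocytes, 19.3 and 39.3 CPM in the Eed-/- astrocytes, 15.6 CPM in the Eed+/+ neurons and 41.4, 56.2 and 41.8 CPM in the Eed-/- neurons. The 3 Eed-/- neuron libraries were the highest of the 10. Lipoprotein lipase (Lpl), which releases fatty acids from lipoproteins, had 13.5, 16.7, 4.33 and 0 CPM, then 10.6 and 0 CPM, then 13.0 CPM, and 10.2, 42.7 and 28.3 CPM in the same order. In the library counts this is 0 to 88 reads, and at 0 reads a count of 0 allows up to 3 counts, or 1.85 CPM in Eed+/+ astrocyte replicate 5 and 3.02 CPM in Eed-/- astrocyte replicate 5 before TMM scaling (counting error only). These were the carrier genes with a negative log2 difference, -0.39 for Abcg1 (SE 0.62, unadjusted p = 0.542, adjusted p = 0.892 by edgeR) and -1.67 for Lpl (SE 1.35, unadjusted p = 0.235, adjusted p = 0.788 by edgeR). Of the 5 carrier and transport genes, 3 were positive, with a median of 0.22.

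Of the 4 SREBP regulators, all had a positive log2 difference, with a median of 0.84, and 2 (Srebf1 and Scap) an unadjusted p under 0.05. Srebf1 encodes the SREBP-1 factors, which drive mainly fatty acid genes. It was at 225, 262, 167 and 239 CPM in the Eed+/+ astrocytes, 267 and 125 CPM in the Eed-/- astrocytes, 105 CPM in the Eed+/+ neurons and 88.7, 87.8 and 98.3 CPM in the Eed-/- neurons. The cell types did not overlap, and the neurons were close together, with a coefficient of variation of 8.64% against 26.3% in astrocytes. Its mean was 214 ± 56.4 CPM (SD, n = 6) in astrocytes and 94.9 ± 8.20 CPM (SD, n = 4) in neurons, with a log2 difference of 1.09 (SE 0.31, unadjusted p = 0.00294, adjusted p = 0.363 by edgeR). Exons of Rai1 on the opposite strand overlap Srebf1, and with unstranded counting reads there cannot be assigned.

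Srebf2, whose product drives mainly the cholesterol genes, had 262, 309, 177 and 333 CPM in the Eed+/+ astrocytes, 326 and 221 CPM in the Eed-/- astrocytes, 255 CPM in the Eed+/+ neurons and 115, 101 and 202 CPM in the Eed-/- neurons. The Eed+/+ neuron library and Eed-/- neuron replicate 3 thus lay among the astrocytes. Insig1, the sterol-dependent brake on the pathway, had 318, 260, 165 and 438 CPM, then 454 and 122 CPM, then 217 CPM, and 374, 213 and 186 CPM. All neuron values lay within the range of the astrocytes. Scap, the escort of the SREBPs, averaged 107 ± 49.9 CPM (SD, n = 6) in astrocytes and 50.9 ± 8.90 CPM (SD, n = 4) in neurons, with only Eed+/+ astrocyte replicate 5 (47.0 CPM) below the highest neuron library (63.0 CPM).

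Apoe and Srebf1 were the 2 of 30 genes with every astrocyte library above every neuron library, a state that held for 1.23% of all genes tested. The reverse, every astrocyte library below every neuron library, held for 0 of the 30 and for 2.24% of all genes tested.

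The 18 genes that encode synthesis enzymes had a median log2 difference of 0.56, and 17 of them were positive. Their summed level was 4691, 6567, 4402 and 4158 CPM in the Eed+/+ astrocytes, 7700 and 2455 CPM in the Eed-/- astrocytes, 3221 CPM in the Eed+/+ neurons and 3947, 2976 and 1928 CPM in the Eed-/- neurons. The Eed+/+ astrocytes all stood above the neurons, whereas the pair of Eed-/- astrocyte libraries held both the highest sum and a sum below that of 3 neuron libraries. The mean sum was 4996 ± 1865 CPM (SD, n = 6) in astrocytes and 3018 ± 835 CPM (SD, n = 4) in neurons.

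Among the 7 mevalonate genes, all 7 had a positive difference, with a median of 0.54, and 1 (Mvk) an unadjusted p under 0.05. Hmgcs1, which makes HMG-CoA, the precursor of mevalonate, was the most abundant of them. It had 945, 1135, 843 and 707 CPM in the Eed+/+ astrocytes, 1099 and 352 CPM in the Eed-/- astrocytes, 595 CPM in the Eed+/+ neurons and 674, 432 and 437 CPM in the Eed-/- neurons. Apart from Eed-/- astrocyte replicate 5, the lowest of all 10 libraries, the astrocytes lay above the neurons. Acat2, a thiolase that makes the acetoacetyl-CoA used by Hmgcs1, had 420, 618, 429 and 286 CPM, then 405 and 240 CPM, then 286 CPM, and 364, 353 and 232 CPM. Its cell types overlapped. The mevalonate kinase gene Mvk had 184, 204, 144 and 154 CPM in the Eed+/+ astrocytes and 379 and 44.8 CPM in the Eed-/- astrocytes, against 60.2 CPM in the Eed+/+ neurons and 95.2, 114 and 50.3 CPM in the Eed-/- neurons. Here the Eed-/- astrocyte libraries were the highest and the lowest of the 10, and the log2 difference was 1.38 (SE 0.49, unadjusted p = 0.0131, adjusted p = 0.469 by edgeR).

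The next enzymes of this stretch had lower measured levels. Pmvk, which adds the second phosphate to mevalonate, averaged 151 ± 72.7 CPM (SD, n = 6) in astrocytes and 95.6 ± 43.7 CPM (SD, n = 4) in neurons, and the decarboxylase gene Mvd 151 ± 66.4 and 102 ± 46.1 CPM. Fdps, which makes farnesyl pyrophosphate, had means of 22.7 and 21.3 CPM, and the isomerase gene Idi1 6.10 and 3.23 CPM, from 2 to 20 reads a library. None of these 4 genes separated the cell types. Exons of Gm43738 on the same strand overlap Fdps, and exons of Gm48574 on the opposite strand overlap Idi1. Reads there cannot be assigned in unstranded counts, so the levels of Fdps and Idi1 may be underestimates. With Abcg1 and Lpl, Idi1 was among the 3 lowest genes per kilobase of exon, with means over the 10 libraries of 3.83 (Abcg1), 1.41 (Idi1) and 1.33 (Lpl) CPM.

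Of the 11 genes from squalene to cholesterol, 10 had a positive difference, with a median of 0.58, and 4 (Dhcr7, Nsdhl, Tm7sf2 and Msmo1) an unadjusted p under 0.05. Msmo1, a sterol methyl oxidase gene, was the most abundant. It had 491, 985, 487 and 584 CPM in the Eed+/+ astrocytes, 1357 and 449 CPM in the Eed-/- astrocytes, 468 CPM in the Eed+/+ neurons and 605, 368 and 234 CPM in the Eed-/- neurons. Both Eed+/+ and Eed-/- astrocytes included values under the highest neuron library, and the log2 difference was 0.86 (SE 0.39, unadjusted p = 0.0396, adjusted p = 0.590 by edgeR). Cyp51, the lanosterol demethylase, had 354, 565, 366 and 341 CPM, then 732 and 146 CPM, then 348 CPM, and 318, 237 and 223 CPM. Its exons overlap those of Akap9 on the opposite strand.

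Dhcr7, whose product catalyzes the last step to cholesterol in one branch of the pathway, had 333, 479, 321 and 444 CPM in the Eed+/+ astrocytes, 983 and 236 CPM in the Eed-/- astrocytes, 144 CPM in the Eed+/+ neurons and 262, 226 and 46.9 CPM in the Eed-/- neurons. Only Eed-/- astrocyte replicate 5 fell within the range of the neurons. The log2 difference of 1.64 (SE 0.48, unadjusted p = 0.00368, adjusted p = 0.369 by edgeR) was the second highest of the 30 genes, after that of Apoe. Nsdhl, a sterol dehydrogenase gene on the X chromosome, averaged 284 ± 168 CPM (SD, n = 6) in astrocytes and 122 ± 43.2 CPM (SD, n = 4) in neurons, and again only Eed-/- astrocyte replicate 5 (122 CPM) lay under the highest neuron library (175 CPM). Tm7sf2, a sterol reductase gene, averaged 215 ± 134 and 78.3 ± 22.1 CPM, and its lowest value of all was in Eed+/+ astrocyte replicate 5 (30.7 CPM).

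Squalene is made by Fdft1, oxidized by Sqle and cyclized by Lss, and all 3 genes overlapped between the cell types. Their means in astrocytes and neurons were 293 ± 89.8 and 197 ± 91.3 CPM (Fdft1), 401 ± 82.3 and 260 ± 74.2 CPM (Sqle), and 90.2 ± 31.7 and 57.8 ± 13.0 CPM (Lss). Sc5d, which introduces a double bond late in the pathway, averaged 244 ± 97.0 and 189 ± 62.0 CPM, and Ebp, which moves one, 44.7 ± 26.8 and 25.1 ± 4.56 CPM. Hsd17b7, a ketosterol reductase gene, was the 1 synthesis gene with a negative log2 difference (-0.55, SE 0.50, unadjusted p = 0.282, adjusted p = 0.803 by edgeR). Its level was 51.0, 83.6, 17.7 and 46.4 CPM in the Eed+/+ astrocytes, 63.6 and 54.0 CPM in the Eed-/- astrocytes, 143 CPM in the Eed+/+ neurons and 78.5, 20.4 and 53.1 CPM in the Eed-/- neurons. The Eed+/+ neuron library stood above all others, and without it the difference was 0.23.

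Of the 3 fatty acid genes, 2 had a positive difference, with a median of 0.25, and 0 an unadjusted p under 0.05. Scd2, a desaturase of the developing brain, had 2030, 2381, 1675 and 1583 CPM in the Eed+/+ astrocytes, 3071 and 1503 CPM in the Eed-/- astrocytes, 1688 CPM in the Eed+/+ neurons and 740, 651 and 1750 CPM in the Eed-/- neurons. Eed+/+ neuron replicate 1 and Eed-/- neuron replicate 3 lay among the astrocytes, and the same pair of libraries was the highest of all 10 for Fasn, the fatty acid synthase gene. Fasn had 334, 282, 231 and 236 CPM, then 200 and 220 CPM, then 378 CPM, and 114, 154 and 367 CPM. Acsl3, which activates long-chain fatty acids for storage, averaged 99.4 ± 29.4 CPM (SD, n = 6) in astrocytes and 90.8 ± 2.53 CPM (SD, n = 4) in neurons. Log2 differences were 0.73 for Scd2, -0.21 for Fasn and 0.25 for Acsl3.

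**Figure D3:**
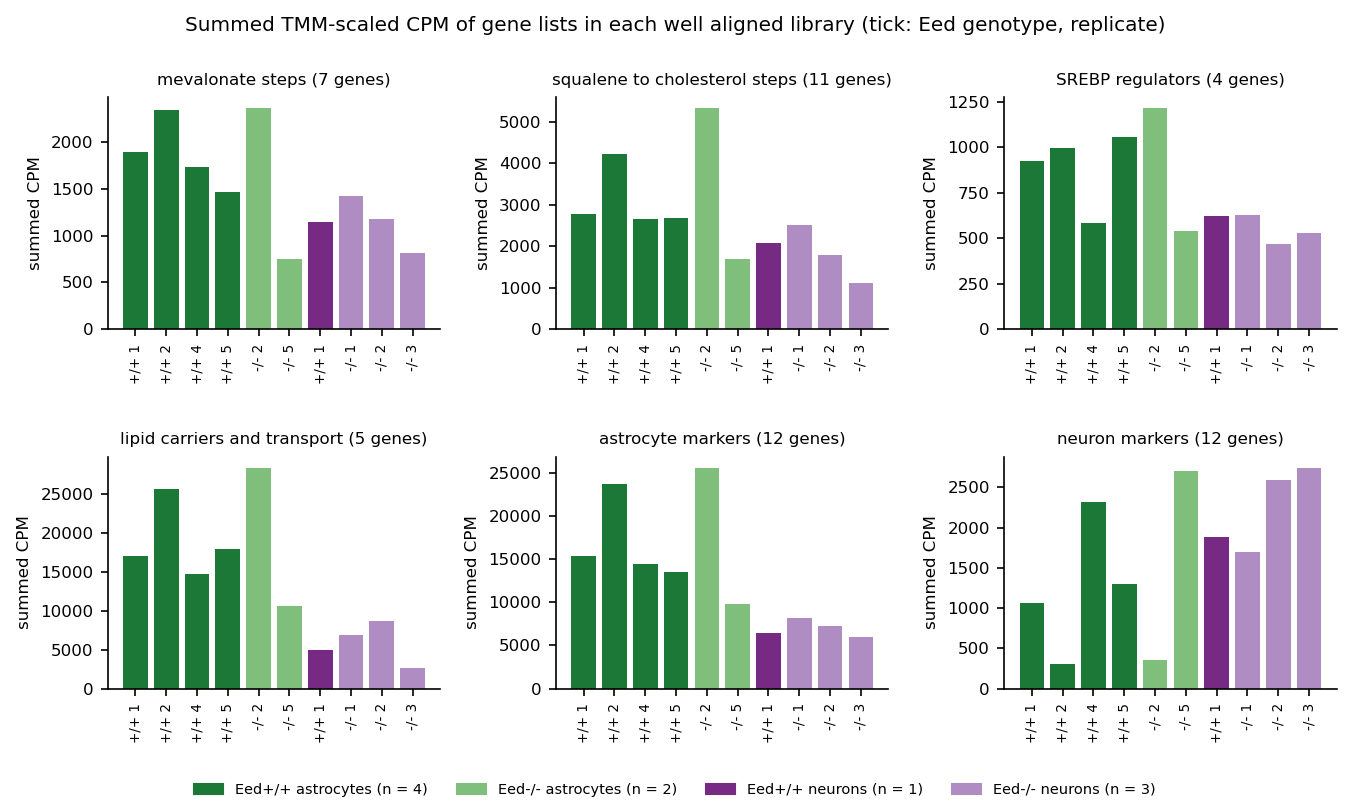
Summed TMM-scaled CPM of 4 role groups of the sterol and lipid genes and of the 12 astrocyte and 12 neuron markers, with 1 bar for each well aligned library and bars from 0. The 18 synthesis genes (mevalonate and squalene to cholesterol steps) and the carriers are highest in Eed-/- astrocyte replicate 2 and low in Eed-/- astrocyte replicate 5, whose summed neuron markers (2700 CPM) lie with those of the neurons. The neuron markers of Eed+/+ astrocyte replicate 4 (2314 CPM) also lie there, while its synthesis and carrier sums stand above all neuron libraries.

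The cell type result depended on the libraries and the tool. With DESeq2 on the same 10 libraries, 4 of the 30 genes were called higher in astrocytes at an adjusted p of 0.05, against 1.16% of all genes tested, namely Apoe (adjusted p = 0.00179), Clu (0.0268), Srebf1 (0.0310) and Dhcr7 (0.0397). Without a filter on low counts, edgeR called 5 (Apoe, Dhcr7, Clu, Nsdhl and Tm7sf2; 0.409% of all genes), and without Eed-/- astrocyte replicate 5 it called 2 (Apoe, adjusted p = 0.0347, and Mvk, adjusted p = 0.0360; 0.498% of all genes). Libraries were also split into 2 runs at the largest gap in their numbers, a split that the labels do not name as a batch. Within the first run of library numbers, which holds 3 of the 6 astrocyte and all 4 neuron libraries, edgeR called 3 (Apoe, Mvk and Tm7sf2, against 0.633% of all genes). In the second run there are no neurons. Over the 20 alternative settings, 4 called any of the 30 genes, 7 different genes in all, always higher in astrocytes, and Apoe was in all 4. With all 15 labelled libraries, 0 of the 30 genes were called, 1 had an unadjusted p under 0.05 (5.42% of all genes tested), 18 were positive and the median was 0.20, whereas 30.4% of all genes tested were positive, with a median of -0.50. With a replicate block as well, 15 were positive and the median was -0.02, whereas 21.1% of all genes tested were positive, with a median of -1.10. Without Eed-/- astrocyte replicate 2 the median was 0.22, with 20 positive, against -0.14 for all genes tested, of which 42.6% were positive. Over the Eed+/+ libraries (4 astrocyte and 1 neuron library), 1 of the 30 genes had an unadjusted p under 0.05 (2.96% of all genes tested), 25 were positive and the median was 0.61, whereas 48.4% of all genes tested were positive, with a median of -0.01. The lone Eed+/+ neuron library has no spread of its own, and the spread shared by all 4 groups was used. Over the Eed-/- libraries (2 astrocyte and 3 neuron libraries), 10 of the 30 genes had an unadjusted p under 0.05, all higher in astrocytes (7.25% of all genes tested in either direction). In that contrast 25 were positive and the median was 0.62, whereas 42.6% of all genes tested were positive, with a median of -0.17.

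The other genes of the pathway were 46 further genes of sterol synthesis, uptake, storage and efflux, SREBP and LXR regulation and fatty acid metabolism, of which 45 were tested. None was called by edgeR in the 10 libraries, and 11 had an unadjusted p under 0.05, all higher in astrocytes (4.3% of all genes tested), with 28 positive and a median of 0.19. DESeq2 called 7 of them at an adjusted p of 0.05, all higher in astrocytes (Fads2, Scd1, Lrp1, Fads1, Acsl6, Cyp46a1 and Acsbg1), and edgeR without a filter on low counts also called 7, of which Fads2, Scd1, Fads1, Acsl6 and Acsbg1 were shared. No overlap between the cell types was seen for 5 of the 46, all higher in astrocytes (1.23% of all genes tested, and 2.24% lower): Scd1, Fads1 and Fads2, which desaturate fatty acids, Lrp1, a receptor for Apoe particles, and Cyp46a1, which hydroxylates cholesterol for removal from the brain. By group, an unadjusted p under 0.05 was found for 8 of 17 fatty acid genes, 3 of 17 genes of uptake, storage and efflux, 0 of 5 tested genes of synthesis and 0 of 6 regulators.

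The second comparison set astrocytes that had lost Eed against Eed+/+ astrocytes, with 2 Eed-/- and 4 Eed+/+ libraries. None of the 30 genes was called, and 0 had an unadjusted p under 0.05, where 7.63% of all genes tested did. Among all genes 0.00692% (1 gene, outside the 30) were called higher and 0% lower. Of the 30 log2 differences, Eed-/- minus Eed+/+, 15 were positive and the median was -0.01, against -0.07 and 46.17% positive for all genes tested. With all labelled libraries, 3 were positive and the median was -0.68, against -0.57 and 30.75% positive for all genes tested. With a replicate block as well, 1 was positive and the median was -1.29, against -1.33 and 17.91% positive for all genes tested. The smallest p among the 30 was that of Acsl3, with 100, 95.7, 62.7 and 72.7 CPM in the Eed+/+ and 137 and 128 CPM in the Eed-/- astrocytes. Both Eed-/- libraries were above all Eed+/+ libraries, and the log2 difference was 0.68 (SE 0.38, unadjusted p = 0.0987, adjusted p = 0.715 by edgeR). Exons of Utp14b on the same strand overlap Acsl3. Fasn was the 1 gene with both Eed-/- libraries (200 and 220 CPM) below all Eed+/+ libraries (231 CPM or more), with a log2 difference of -0.37 (SE 0.45). Among all genes tested, 5.72% had both Eed-/- libraries above and 7.37% below all Eed+/+ libraries.

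**Figure D4:**
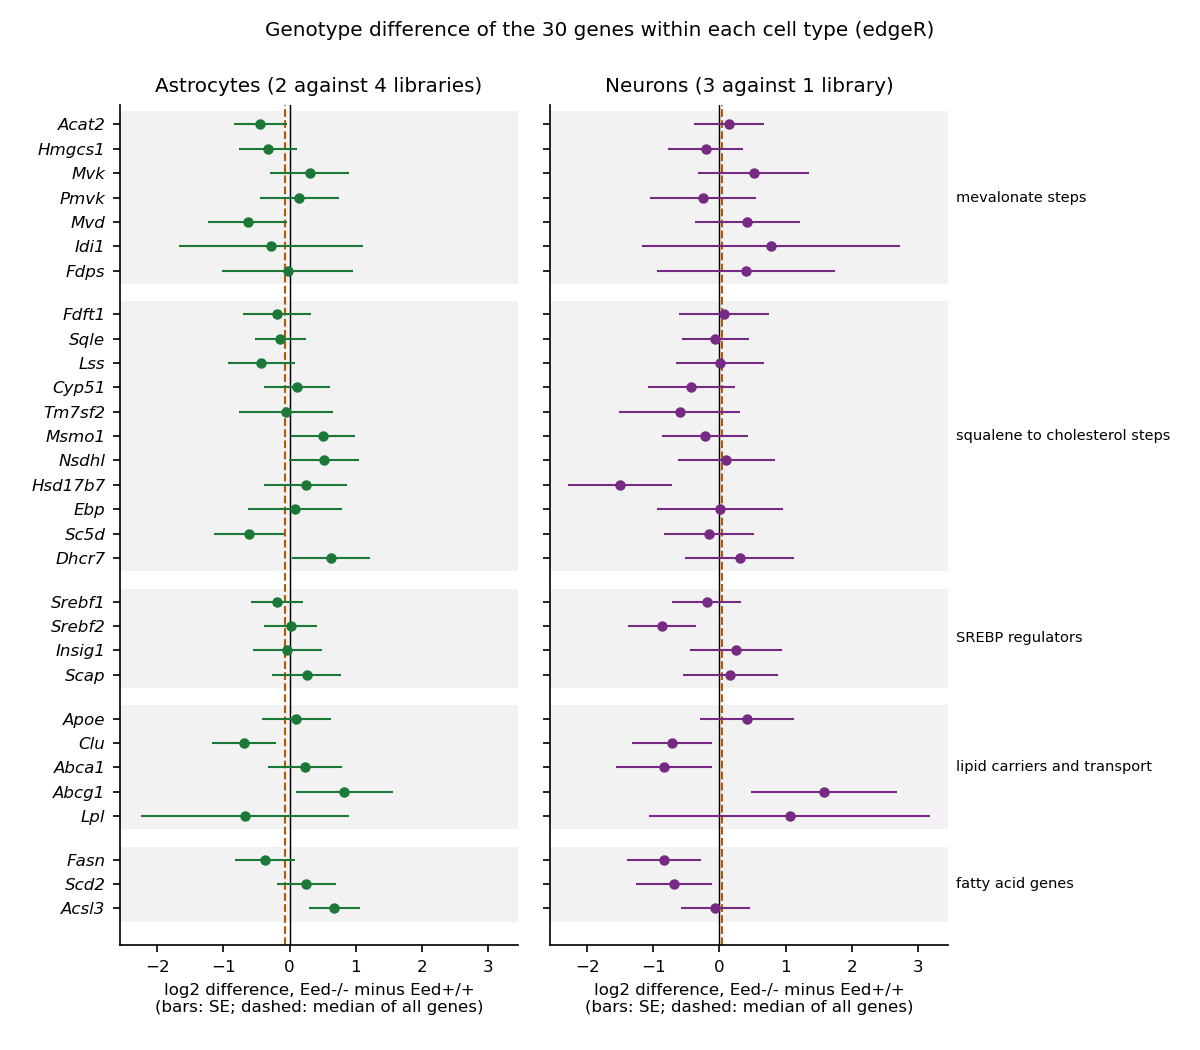
Log2 difference of each of the 30 genes, Eed-/- minus Eed+/+, in astrocytes (left, 2 against 4 libraries) and neurons (right, 3 against 1 library), with standard errors as bars and the median of all genes tested as a dashed line. No gene passed the test in either cell type, and 15 of 30 points lie right of 0 in each.

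After Acsl3, the smallest p among the positive differences belonged to Abcg1 (0.83, SE 0.73, unadjusted p = 0.279, adjusted p = 0.825 by edgeR) and Dhcr7 (0.63, SE 0.59, unadjusted p = 0.305, adjusted p = 0.844 by edgeR). On the negative side stood Clu (-0.69, SE 0.48, unadjusted p = 0.177, adjusted p = 0.759 by edgeR), Sc5d (-0.61, SE 0.53, unadjusted p = 0.265, adjusted p = 0.816 by edgeR) and Acat2 (-0.44, SE 0.40, unadjusted p = 0.287, adjusted p = 0.833 by edgeR). Sc5d had 282, 330, 278 and 214 CPM in the Eed+/+ and 298 and 61.3 CPM in the Eed-/- astrocytes. Its low value came from 1 of the Eed-/- libraries alone, as did those of Clu, Dhcr7 and Mvk.

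The pair of Eed-/- astrocyte libraries lay far apart in these genes. Replicate 2 had the highest value of all 10 libraries in 14 of the 30 genes, and replicate 5 the lowest of the 6 astrocyte libraries in 20. Shares of all genes for these counts were not computed. Replicate 5 was below replicate 2 in 27 of the 30 genes (90.0%), with a median ratio of 0.347, whereas it was below in 41.1% of all genes tested, with a median ratio of 0.868. Their summed astrocyte markers were 25650 and 9793 CPM, and their summed neuron markers 354 and 2700 CPM. The part of these markers in the spread was not tested. With replicate 5 alone as the Eed-/- library, the median difference of the 30 genes was -0.83, with 4 positive and 6 at an unadjusted p under 0.05, all lower, where 8.76% of all genes tested had such a p. With replicate 2 alone it was 0.39, with 26 positive and 3 at an unadjusted p under 0.05, all higher, where 14.8% of all genes tested had such a p. A lone library was assumed to vary like those of the other groups. Within the first run of library numbers the median was 0.21 (22 of 30 positive), and 0 of the 30 genes were called, where 87 of 13895 genes tested were called higher and 670 lower. Within the second run it was -0.54 (5 of 29 positive), with 0 of 12170 genes called and 6 of the 29 at an unadjusted p under 0.05, all lower, against 3.72% of all genes tested. Summed microglia markers were 43.0 and 14.6 CPM in the Eed-/- astrocytes and between 12.5 and 475 CPM in the Eed+/+ astrocytes.

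By role, the median difference in astrocytes was -0.28 for the mevalonate genes (2 of 7 positive), 0.09 for the genes from squalene to cholesterol (6 of 11), -0.01 for the SREBP regulators (2 of 4), 0.10 for the carriers (3 of 5) and 0.25 for the fatty acid genes (2 of 3). Of the 45 other genes of the pathway, 0 were called and 0 had an unadjusted p under 0.05, with a median of -0.03. Apoe, on the chromosome that carries Eed, differed by 0.10 (SE 0.52).

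In neurons 3 Eed-/- libraries stood against 1 Eed+/+ library, whose spread was taken to be that of the other groups. None of the 30 genes was called or had an unadjusted p under 0.05, and 0.346% of all genes tested had one (0% were called in either direction). Hsd17b7 had the smallest p, from 143 CPM in the Eed+/+ library and 78.5, 20.4 and 53.1 CPM in the Eed-/- libraries (log2 difference -1.50, SE 0.78, unadjusted p = 0.0757, adjusted p = 1.00 by edgeR). Next came Srebf2 (-0.87, SE 0.51) and Fasn (-0.84, SE 0.56), for which the Eed+/+ value, 255 and 378 CPM, was above all 3 Eed-/- values. On the positive side stood Abcg1 (1.58, SE 1.10), Mvk (0.52, SE 0.84) and Apoe (0.42, SE 0.71), the last pair with Eed-/- values on both sides of the Eed+/+ value. The adjusted p of these 6 genes was 1.00 by edgeR. The median difference of the 30 genes was -0.03, with 15 positive, against 0.04 for all genes tested. Without Eed-/- neuron replicate 3, 4 of the 30 had an unadjusted p under 0.05, all lower, against 1.48% of all genes tested, and without replicate 1, 9 of the 30 were positive and the median was -0.23. Of the 4 neuron libraries, Eed-/- replicate 3 was the lowest in 19 of the 30 genes, although its Scd2, Fasn and Abca1 were the highest or second highest of the neurons. The share of all genes with that library lowest was not counted, so this does not set the 30 genes apart.

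The test of whether the genotype difference itself differed between astrocytes and neurons called 0 of the 30 genes and 0% of all genes in either direction, and 0 of the 30 had an unadjusted p under 0.05, against 2.37% of all genes tested. The smallest p among the positive values belonged to Hsd17b7 (1.75, SE 1.01, unadjusted p = 0.106), Srebf2 (0.89, SE 0.66) and Scd2 (0.94, SE 0.73), and among the negative values to Mvd (-1.05, SE 1.00), Acat2 (-0.59, SE 0.67) and Lpl (-1.73, SE 2.64), all with an adjusted p of 1.00 by edgeR. Over the 30 genes the median was 0.02 with 16 positive, against -0.19 and 43.4% positive for all genes tested. Without Eed-/- astrocyte replicate 2 the median was -0.97 with 7 positive, against -0.33 and 41.2% positive for all genes tested. An effect of Eed on the 30 genes was not detectable with these libraries, which does not show that there is none.

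The poorly aligned libraries added little on single genes. In their raw counts, 18, 6 and 17 of the 30 genes were at 0 in Eed-/- astrocyte replicates 1, 3 and 4, 5 were at 0 in Eed+/+ astrocyte replicate 3 and 2 in Eed+/+ neuron replicate 2, whereas in the 10 well aligned libraries only Lpl was ever at 0. Apoe had reads in all of them, at 4456, 11470 and 3585 CPM in the Eed-/- astrocytes, 3123 CPM in the Eed+/+ astrocytes and 556 CPM in the Eed+/+ neurons, without TMM scaling. The same libraries held summed microglia markers of 16430 CPM in Eed-/- astrocyte replicate 1 and 2996 CPM in replicate 3, erythroid markers of 8829 CPM in replicate 1 and 11930 CPM in replicate 4, and neuron markers of 4542 CPM in Eed+/+ astrocyte replicate 3, and their part in the values was not tested.

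Spread between replicates was wide for most genes. Over the 30 genes the median coefficient of variation was 42.8% in the 6 astrocyte libraries, from 19.6% (Fasn) to 94.6% (Lpl), and 36.2% in the 4 neuron libraries, from 2.79% (Acsl3) to 70.6% (Hsd17b7). It was higher in astrocytes for 21 of the 30. Exons of another gene overlapped 11 of the 30 genes, whose counts are less certain for that reason.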

How the data were processed

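Libraries were made from few sorted cells by the authors with the Smart-Seq v2 protocol, aligned with STAR to mm10 (GRCm38) and deposited as raw read counts per gene, with replicates kept apart. Sources used here do not name the annotation release. Unstranded counts (column 2) were used, since the first strand took 45.2% to 52.7% of the stranded reads, and the 4 total lines of each file were left out of library sizes. Symbols came from the gene identifiers (53274 of 53379 matched).

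Well aligned libraries were those with at least 60% and at least 1000000 uniquely aligned reads, which the study names among its limits for its embryonic libraries. For the libraries described here, the study set aside 5 without naming them. Its stated grounds were the position in a principal component plot or low correlation between replicates. That rule differs from the limits used here, so the libraries kept are not the same set. Genes were tested with edgeR 4.0.16 (R 4.3.3; quasi-likelihood, TMM, filterByExpr, robust, two-sided). The cell type model was fitted with genotype as a term over 10 libraries, and genotype and its interaction with cell type as contrasts of 4 group means over the same libraries. Benjamini-Hochberg adjustment ran over all 14445 genes, with a threshold of 0.05. Scripts were tested on simulated data. DESeq2 1.42.0, RLE size factors, no filter, all labelled libraries, runs of library numbers, a replicate block and each library left out were alternatives. Labels do not say more of the replicates than that each is 1 animal.

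Genes given full test values were those past the threshold or, where none passed, the 3 with the smallest p in each direction, and values by library were given for the 2 most abundant genes of each role and for genes on which a result turned. Dhcr7, Mvk and Msmo1, also given test values between the cell types, and Fasn by genotype in astrocytes were chosen after their values were seen. The 30 genes, the pathway and marker lists and the tests were chosen with earlier results of these data known.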

Additional observations from a re-analysis of the deposited data

Results flagged for a closer look

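Within the 4 well aligned Eed+/+ astrocyte libraries, 2 of the 30 genes had a library far from the others (gap over range above 0.829), and chance picks about 1 in 20 such groups. Cyp51, the lanosterol demethylase gene, was at 565 CPM in replicate 2, with a gap over range of 0.886. Ebp was at 93.4 CPM in replicate 5, with a gap over range of 0.907.

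The library without a group, whose labels give Eed-/- cells but name both cell types, entered no comparison. In it, 8 of the 30 genes had a plain CPM, without TMM scaling in any library, above the highest plain CPM of the 7 Eed+/+ libraries: Scd2 (6782 against 2279 CPM), Clu (2429 against 2168), Tm7sf2 (1079 against 343), Fdft1 (989 against 341), Srebf2 (691 against 328), Pmvk (587 against 172), Fasn (497 against 407) and Sc5d (456 against 354). That library had 221456 counts over 2397 genes, 17.8% uniquely aligned reads and 13 of the 30 genes at 0, and the difference was not tested. The share of all genes above the Eed+/+ libraries in it was not counted, so the 8 genes do not set the 30 apart.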

How the results depend on the processing

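Direction and side of the threshold held in most recomputed results, and no setting called any of the 30 genes by genotype, for the interaction or as higher in neurons. Against 0 in the main fit, the number of the 30 genes called higher in astrocytes was 5 without a filter, 4 with DESeq2, 3 in the first run of library numbers and 0 to 2 when leaving out one library. For the other genes of the pathway these numbers were 7, 7, 6 and 0 to 6, and 1 with run as a covariate. Over all genes, those called higher in astrocytes were 109, 168, 88 and 0 to 71, 5 with run as a covariate and 1 with all labelled libraries, and those higher in neurons 18, 75, 21, 0 to 3 and 1. By genotype in astrocytes, 1 gene was called in the main fit, 46 with all labelled libraries, 26 without a filter, 108 with DESeq2, 0 with astrocyte libraries only (all labelled or well aligned), 757 in the first and 0 in the second run (both chosen after seeing the data), and 1 to 138 when leaving out one library, the last without Eed-/- astrocyte replicate 5. In neurons 3 were called with all labelled libraries and 1 without a filter. For the interaction 7 were called with all labelled libraries, 1 without a filter, 5 with DESeq2 and 0 to 1 when leaving out one library. The cause of these moves was not tested.

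Some log2 differences changed sign, none of them past the threshold. Between cell types, Abcg1 was 0.08 in control libraries only, and Hsd17b7 was 0.22 in Eed-/- libraries only and -0.82 to 0.23 when leaving out one library (0.23 without Eed+/+ neuron replicate 1). By genotype in astrocytes, Acsl3 was -1.18 and Dhcr7 -0.27 with all labelled libraries, and -1.20 and -0.25 with all labelled astrocyte libraries alone. When leaving out one library, Dhcr7 went from -0.69 (without Eed-/- astrocyte replicate 2) to 1.32 and Sc5d from -2.11 to 0.11 (without replicate 5). Dhcr7 was -0.64 in the second run and Abcg1 -0.21 in the first. With all labelled libraries Srebf2 was 0.02 by genotype in neurons and -0.98 for the interaction. A pairing by replicate number was not shown: deviations of same-numbered libraries from their group means had r from -0.035 to 0.12 over 5 astrocyte and neuron pairs, and from -0.245 to 0.164 over 7 control and Eed-/- pairs, most of which include a poorly aligned library, and in a group of 2 libraries the deviations mirror each other, so this check is weak. With the replicate block over all labelled libraries, 0 of the 30 genes were called in any comparison, their median difference between the cell types was -0.02 (15 positive; -1.10 for all genes) and that by genotype in astrocytes -1.29 (1 positive; -1.33 for all genes), and 1 gene was called for the interaction, Acsl3 was -2.33 and Dhcr7 -0.88 by genotype in astrocytes, and Hsd17b7 was -0.18 and Srebf2 -1.44 for the interaction.

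Depth limits the low genes: Idi1 had at most 20 reads and Lpl at most 88 in a well aligned library. Exons of another gene also overlap Idi1, which limits its counts. With 1 Eed+/+ neuron library, the genotype difference in neurons has no replicate spread of its own in that arm.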
